A study of Mus musculus with 35 samples.

Results

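Mature oligodendrocytes of the mouse hippocampus that carried no read of 3 reactive genes are described here, one nucleus at a time and summed per library. A barcode was taken as a mature oligodendrocyte where at least 500 genes were detected and where St18, Prr5l, Mag, Mog and Ermn together gave 5 or more unique molecular identifiers (UMIs, 1 per captured RNA molecule) from 3 or more of these genes and 0.2% or more of its UMIs. Barcodes with more than 3 UMIs of the neuronal genes Snap25 and Rbfox3, any UMI of the precursor gene Pdgfra, or more than 1 UMI of the microglial genes Csf1r and Inpp5d were left out. Of 142840 barcodes with 500 or more genes, 34099 met these limits, and 10524 of those had no UMI of C4b, Il33 or Cdkn1a. They made up 30.9% of mature oligodendrocytes and 7.37% of all such barcodes. The other 23575 mature oligodendrocytes carried at least 1 UMI of the 3 genes. The nuclei were chosen by the UMIs of the 5 markers, of the genes that excluded other cells and of the 3 reactive genes, so the values of these genes are given as a description only.

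Oligodendrocytes wrap axons in myelin, a compacted stack of membrane that speeds the nerve impulse, and they supply the axon with metabolites. They arise from precursor cells that pass through a premyelinating stage, marked by genes such as Enpp6, Itpr2 and Bcas1, before they switch on the full set of myelin genes. In disease models, mature oligodendrocytes can take up a reactive state in which complement C4b, the antiprotease Serpina3n and MHC class I genes are expressed, and Il33, an alarmin cytokine, is also made by many mature oligodendrocytes of healthy tissue. The V-ATPase is a proton pump that acidifies lysosomes, and Atp6v1h encodes a subunit of its cytosolic part. CLEAR elements are short promoter sequences bound by TFEB, a transcription factor that drives lysosomal genes.

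Nuclei came from the frozen hippocampus of C57BL/6 mice aged 9 months, in 14 droplet libraries of 4 groups. WT mice (3 libraries) carried neither modification. PS19 mice (3 libraries) carried a transgene of mutant human tau, which is known to be driven by the prion protein promoter. CLEAR mice (4 libraries) carried, as far as the study is known, a mutated CLEAR element of Atp6v1h, and CLEAR_PS19 mice (4 libraries) carried both modifications. The last library of each group came from a female and the others from males. Bulk RNA-seq of whole hippocampus was made from WT and PS19 mice at 9 months (5 and 4 libraries) and at 4 months (6 and 6 libraries).

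The nuclei held 21596845 UMIs in all, 1079415 to 2244066 per library, with medians of 1263 to 2576 UMIs and 745 to 1286.5 genes per nucleus. The nuclei of the same libraries with any of the 3 genes were deeper, with medians of 1374 to 2930 UMIs, so a nucleus with few UMIs was more likely to count as free of them. Any 2 libraries shared between 10 and 70 cell barcodes, and at most 1 of these belonged to the nuclei described in both. Clustering the summed profiles gave 3 sets of libraries that the labels do not explain in full. Replicates 1 and 2 of CLEAR and of CLEAR_PS19 formed 1 set, the 4 females another, and the remaining 6 libraries the third, so no WT or PS19 library stood in the first set. The 2 CLEAR replicates of that set differed by a chi-square of 1.53 per gene and the 2 CLEAR_PS19 replicates by 1.82, against 2.75 to 9.28 in the other 16 pairs of the same group. These 2 pairs were the most alike of all. Both were counted as separate samples, as labelled, and whether a pair shares an animal or tissue was not tested. With these 4 libraries left out, the averaged tau comparison below gave 57 calls in place of 31. Whether libraries came from separate animals or litters is not given in the sources used here, and p-values measure the spread between these libraries.

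Of the genes that chose the nuclei, Mog, the myelin oligodendrocyte glycoprotein, stood at 864 to 1460 CPM (a gene's UMIs scaled to the normalised UMI total of the library's summed nuclei), and Mag, a second myelin glycoprotein, at 803 to 1195 CPM. Outside the rule, Mbp, myelin basic protein, was detected in 98.1% to 100% of the nuclei of a library. The transcription factor St18 stood between 3371 and 5371 CPM, and its 4 lowest values were those of replicates 1 and 2 of CLEAR and of CLEAR_PS19. A median nucleus held 11 to 24 UMIs of the 5 markers. Only 293 of the nuclei described here held exactly 5 marker UMIs and 415 held 6, while 175 barcodes met every other limit with 4.

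The number of nuclei without the 3 genes varied widely. WT replicates 1 to 3 held 876, 494 and 872 of them, PS19 replicates 475, 405 and 671, CLEAR replicates 854, 804, 605 and 828, and CLEAR_PS19 replicates 1073, 1313, 385 and 869. As a share of mature oligodendrocytes, the WT libraries held 39.8%, 38.0% and 44.6%. The PS19 libraries held 14.7%, 13.1% and 28.4%, those of CLEAR held 36.6%, 35.1%, 34.3% and 36.5%, and those of CLEAR_PS19 held 31.4%, 38.9%, 16.1% and 41.1%. The 3 PS19 libraries lay below every WT and CLEAR library, while those of CLEAR_PS19 reached from the level of PS19 to that of WT. Because a zero is likelier at low depth, each nucleus was also thinned at random to 1000 UMIs, which kept 9707 of the 10524 nuclei and 22931 of the 23575 others.

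At that fixed depth the share of mature oligodendrocytes without the 3 genes was 58.5%, 65.5% and 63.1% in WT and 36.1%, 35.2% and 46.0% in PS19. It was 54.1%, 52.1%, 59.9% and 56.4% in CLEAR and 50.0%, 53.04%, 42.7% and 48.5% in CLEAR_PS19. The group means were 62.3% ± 3.55 (SD, n = 3), 39.1% ± 5.99 (n = 3), 55.6% ± 3.36 (n = 4) and 48.5% ± 4.34 (n = 4), in that order. PS19 did not overlap WT or CLEAR, while PS19 replicate 3 lay above the lowest CLEAR_PS19 library. These shares restate the rule and were not tested.

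**Figure D1:**
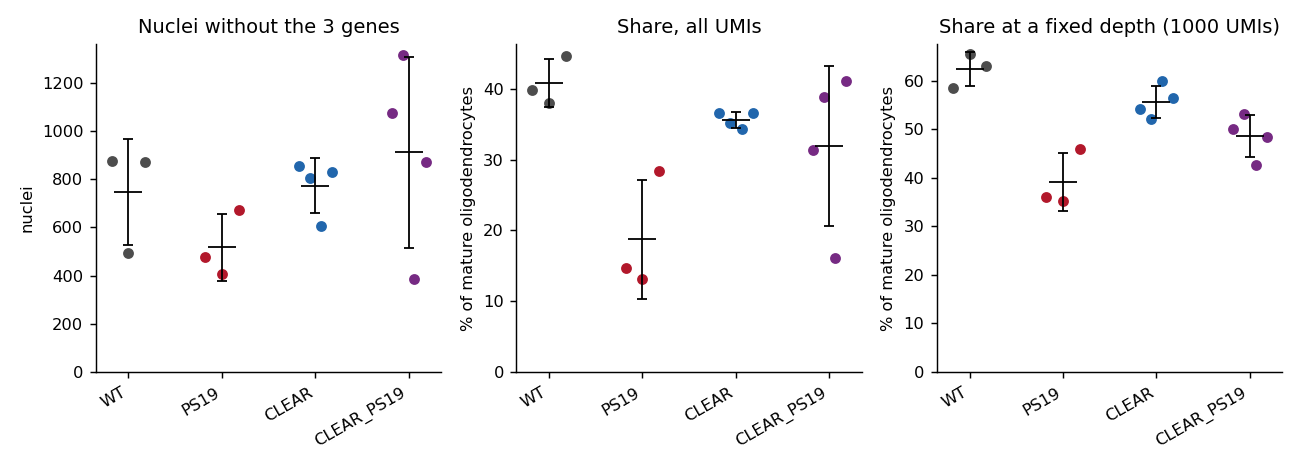
Mature oligodendrocytes without a UMI of C4b, Il33 or Cdkn1a in each nuclei library: their number, their percentage of mature oligodendrocytes with all UMIs, and the same percentage with every nucleus thinned to 1000 UMIs. Points are libraries, and bars give the group mean ± SD (n = 3, 3, 4 and 4). PS19 libraries lie at 13.1% to 28.4% in the middle panel, below all WT and CLEAR libraries, and at fixed depth at 35.2% to 46.0% against 58.5% to 65.5% in WT.

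The 3 genes did not remove the same nuclei in each group. Il33 was found in 57.5% ± 4.18 of WT mature oligodendrocytes (SD, n = 3) and in 66.7% ± 6.29 of those of PS19, so it removed most nuclei in both. C4b was found in 4.59% ± 2.20 in WT and in 47.9% ± 12.3 in PS19, with 9.95% ± 3.22 in CLEAR and 24.7% ± 14.6 in CLEAR_PS19. Cdkn1a, the cell cycle inhibitor p21, was found in 0.0881% ± 0.0437 in WT and in 9.49% ± 6.53 in PS19. The nuclei described here are therefore mostly those without Il33 in WT and those without Il33 or C4b in PS19, and other reactive genes were not used to choose them.

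CLEAR mutation. The question of these comparisons was what the mutated CLEAR element changed in the nuclei. Atp6v1h (chr1:5070018-5162529, plus strand, GRCm38) was the only gene of 11433 tested that passed the test. Other settings gave many more calls averaged over both backgrounds (517 without a filter on low counts and 3021 with a replicate block). The labels do not pair replicates, so that block has no basis in them. In CPM, Atp6v1h stood at 75.2, 99.99 and 81.8 in WT, at 112, 90.0 and 89.0 for PS19, at 18.0, 26.6, 19.0 and 17.1 for CLEAR, and at 13.6, 18.9, 30.9 and 20.5 in CLEAR_PS19. All 8 libraries with the mutation lay below all 6 without it, with group means of 85.7 ± 12.8 (SD, n = 3), 97.1 ± 13.2 (n = 3), 20.2 ± 4.36 (n = 4) and 20.97 ± 7.25 (n = 4). The fold change averaged over both tau backgrounds was -2.19 on the log2 scale (SE 0.16), with an adjusted p of 2.04e-06 in edgeR's quasi-likelihood test with Benjamini-Hochberg adjustment. Atp6v1h fell by 2.09 (SE 0.22, adjusted p 0.000535 in edgeR) without tau and by 2.28 (SE 0.22, adjusted p 0.000197 in edgeR) with it. In each of these 3 comparisons it was the single call, 0.00875% of genes tested. Within a set of libraries, the difference in log2(CPM + 1) between CLEAR and WT was -2.13 and -2.19, and that between CLEAR_PS19 and PS19 was -1.67 and -2.07. Atp6v1h overlaps Rgs20, and whether the counting used the strand is not given in the sources used here.

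The loss of Atp6v1h was compared with that in other cells of the lineage by exact permutation of the CLEAR genotype within each tau background (1225 relabellings, two-sided, difference of log2 CPM with a pseudocount of 0.5). The change was -2.16 in the nuclei without the 3 genes and -2.39 in those with any of them, a difference of 0.23 that did not pass (exact p = 0.140, also after adjustment over the 2 comparisons). Oligodendrocyte precursors were 3400 nuclei with 3 or more UMIs of Pdgfra, Cspg4 and Vcan from 2 or more of these genes. Such nuclei had at most 2 UMIs of the mature markers and met the same neuronal, microglial and gene number limits. The precursors held Atp6v1h at 92.6, 103 and 82.4 CPM in WT and at 82.3, 71.6, 75.2 and 71.4 CPM in CLEAR. These precursor values are those without tau, while the precursor change of -0.50 (exact permutation p = 0.00245) was averaged over both tau backgrounds. It was smaller than that of the mature nuclei by 1.67 on the log2 scale. The difference as coded was -1.67 (exact permutation p = 0.000816, the smallest the relabellings can give, and 0.00163 after adjustment). Over all other nuclei of the libraries Atp6v1h stood at 97.3 to 114 CPM in WT and at 57.3 to 60.9 CPM in CLEAR, a comparison that was not tested.

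**Figure D2:**
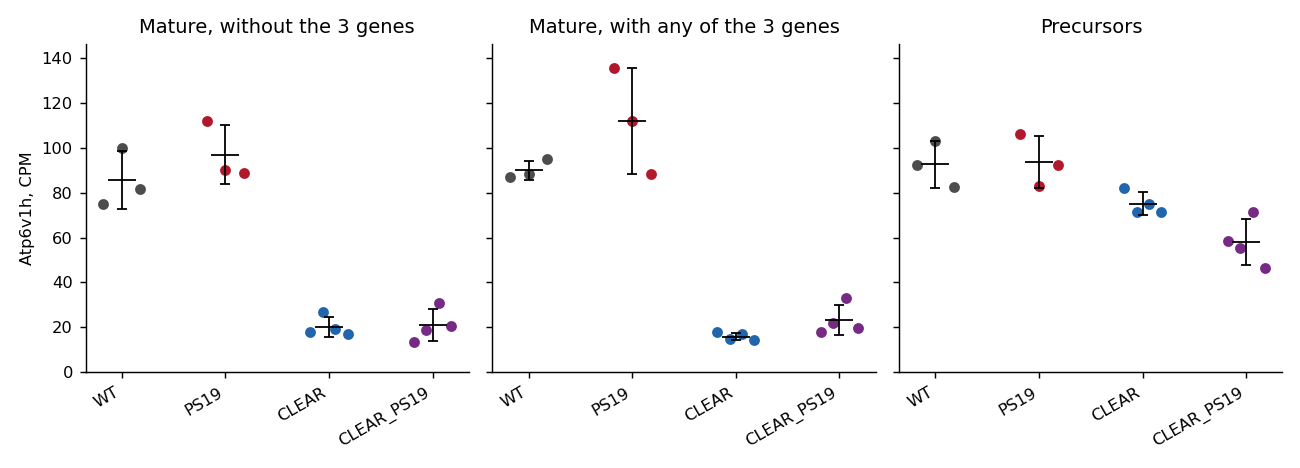
Atp6v1h, in CPM of nuclei summed per library, in mature oligodendrocytes without the 3 reactive genes (left), in those with any of them (middle) and in oligodendrocyte precursors (right). Points are libraries and bars the mean ± SD. CLEAR and CLEAR_PS19 libraries lie at 13.6 to 30.9 CPM in the left panel against 75.2 to 112 in WT and PS19, and the gap is narrower in the precursors.

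TFEB binds CLEAR elements built around the core CACGTG. RefSeq promoters (GRCm38.p6, 250 bases before to 50 after the gene start) matched 19 of the 25 V-ATPase genes listed, and Atp6v1h was not among them. The core CACGTG occurred in 4 of these 19 promoters and in 7.15% of all 32851 promoters of the same length. The longer TCACGTGA, which contains the core, occurred in 3 of the 19 and in 0.974% of all. TCACGTGA with a G before and a C after it, the longest form searched, occurred in 0 of the 19 and in 0.326% of all. All 3 read the same on both strands. The 4 promoters that held the core are shown because they hold the core that CLEAR elements share, 30 bases each, 5′ to 3′ on the gene's strand, with the core in capitals.
Atp6v0b: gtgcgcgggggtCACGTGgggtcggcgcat
Atp6v0d1: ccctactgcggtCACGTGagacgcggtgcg
Atp6v1a: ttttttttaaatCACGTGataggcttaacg
Atp6v0e: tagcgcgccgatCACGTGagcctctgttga
They lie at chr4:117887348-117887377 (minus strand), chr8:105566050-105566079 (minus), chr16:44139373-44139402 (minus) and chr17:26676387-26676416 (plus), in that order. The core began at position -36, -3, -131 and 3, counted from the first base of the gene as 0. A match is a description of the letters and not of binding.

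None of these 4 genes, nor any V-ATPase gene other than Atp6v1h among the 19 measured, passed the test with the CLEAR mutation. Atp6v0b, a subunit of the membrane part, stood at 233 to 396 CPM in WT and at 276 to 373 CPM in CLEAR (log2 0.26, SE 0.12, adjusted p 0.343 in edgeR). Atp6v0c, which forms the proton channel, had a fold change of 0.39 (SE 0.19, adjusted p 0.361 in edgeR). The median fold change of the 19 genes was 0.13 against 0.01 over all genes tested, and 13 of the 19 had a positive sign.

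No member of any other list passed with the mutation. None of 34 measured genes of myelin proteins and lipids passed, with a median of 0.25 and 27 positive signs, and none of 13 heat shock genes, with a median of 0.39. Ptgds, prostaglandin D synthase and a gene of 1 mature subtype, had a positive fold change that did not pass. It stood at 1154, 1054 and 1603 CPM in WT, at 2856, 3323, 1377 and 2148 CPM in CLEAR, and at 4196, 3666, 1645 and 1282 CPM in CLEAR_PS19. The high values were those of replicates 1 and 2 of both CLEAR groups and of CLEAR replicate 4, while CLEAR replicate 3 and CLEAR_PS19 replicate 4 lay within the range of WT. Its fold change was 0.97 (SE 0.26, adjusted p 0.309 in edgeR), and it did not pass. The set formed by replicates 1 and 2 of both CLEAR groups holds no WT or PS19 library, so within it the mutation and the set cannot be told apart. In the set of 6 males CLEAR replicate 3 (1377 CPM) lay above WT replicates 1 and 2 (1154 and 1054 CPM), and in the females CLEAR replicate 4 (2148 CPM) lay above WT replicate 3 (1603 CPM). None of 49 lysosomal and 35 TFEB, mTORC1 and autophagy genes passed, with medians of 0.23 and -0.04.

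Tau transgene. These comparisons asked whether mature oligodendrocytes without the 3 genes differ between mice with and without tau. Averaged over both backgrounds, 31 genes passed, 0.271% of the 11433 tested, 17 of them higher (0.149%) and 14 lower (0.122%). The MHC class I genes H2-D1 and B2m, the protease inhibitor Serpina3n and the C1q chains were among the higher genes. The astrocyte genes Slc1a2 and Gja1 and the lipid transporter Abca8a were among the lower. Between PS19 and WT 10 genes passed (0.0875%), 6 higher (0.0525%) and 4 lower (0.035%), and between CLEAR_PS19 and CLEAR 1 gene passed (0.00875%). The number of calls depended on single libraries: leaving out WT replicate 2 or PS19 replicate 2 left 7 calls, CLEAR_PS19 replicate 2 left 11, CLEAR replicate 4 left 14, CLEAR_PS19 replicate 4 left 15, WT replicate 1 or PS19 replicate 1 left 16, CLEAR replicate 1 left 17, and WT replicate 3 or CLEAR replicate 2 left 19. Without sex in the model 12 genes passed. Among the genes described below, H2-D1, C1qa, Ctss, Slc1a2, Gja1, Wdr17 and Gm43049 passed in all 14 fits that left out 1 library. Slc1a2, Gja1 and Wdr17 did not pass when barcodes scored as doublets were left out, as given below. Serpina3n lost its call in 4 of the 14 fits, B2m in 5, C1qb in 6, C1qc and Abca8a in 7, Cebpd in 9, Csmd1 in 10, Masp1 in 11, Irf9 in 12 and Sparcl1 in 13. Bcl3 lost it in 2 and Lyz2 in 8 of the 13 fits that tested them.

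H2-D1 (chr17:35262730-35267499), a heavy chain of MHC class I, stood at 10.0, 3.6 and 6.6 CPM in WT and at 72.3, 75.1 and 18.1 CPM in PS19. It stood at 9.3, 12.1, 4.8 and 5.9 CPM in CLEAR and at 34.7, 33.8, 20.9 and 8.9 CPM in CLEAR_PS19. The female library was the lowest of both tau groups, and CLEAR_PS19 replicate 4 fell within the range of CLEAR. The averaged log2 fold change of H2-D1 was 2.22 (SE 0.27, adjusted p 0.00163 in edgeR), and it passed in the nuclei thinned to 1000 UMIs as well (2.07). Within a set of libraries the difference in log2(CPM + 1) between PS19 and WT was 3.39 in the males and 1.33 in the females. A UMI of H2-D1 was detected in 1.01% to 16.5% of the nuclei of a library, against 3.98% to 23.4% of precursors, whose median depth was higher (2214 to 5588 UMIs). At 1000 UMIs each, the shares were 0.611% to 8.90% and 1.40% to 7.59%, ranges that overlap. A nucleus without a UMI at such depths need not lack the RNA.

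B2m, the light chain of MHC class I, stood at 4.7, 5.8 and 3.6 CPM in WT, 28.1, 23.7 and 15.7 for PS19, 10.5, 7.9, 6.8 and 7.9 for CLEAR, and 14.05, 15.4, 10.0 and 3.6 in CLEAR_PS19. PS19 stood above all WT and CLEAR libraries, while CLEAR_PS19 overlapped CLEAR and its replicate 4 lay below every CLEAR library. Its averaged log2 fold change was 1.32 (SE 0.23, adjusted p 0.0226 in edgeR), and in thinned nuclei it no longer passed (1.38, adjusted p 0.192). Serpina3n, a secreted protease inhibitor of reactive glia, stood at 1.6, 2.9 and 1.2 CPM in WT, 11.1, 20.8 and 8.2 for PS19, 2.3, 1.2, 4.8 and 3.3 for CLEAR, and 4.8, 13.2, 10.0 and 8.0 in CLEAR_PS19. The tau libraries lay above all others for Serpina3n, though CLEAR_PS19 replicate 1 (4.83 CPM) and CLEAR replicate 3 (4.75 CPM) were almost level (log2 2.20, SE 0.36, adjusted p 0.0165 in edgeR). Serpina3n missed the threshold in thinned nuclei (2.36, adjusted p 0.0572).

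Of the 10 measured genes of the reactive and MHC class I list, H2-D1, B2m and Serpina3n passed and 9 had a positive sign, with a median of 0.74 against 0.01 over all genes tested. H2-K1, a further class I heavy chain, had a fold change of 1.37 (adjusted p 0.0600 in edgeR). Irf9, which assembles the transcription factor of type I interferon, passed at 1.42 (SE 0.28, adjusted p 0.0431 in edgeR) and was the only 1 of 7 measured interferon genes to do so. None of 16 genes of the stress response and p53 passed, although all 16 had a positive sign (median 0.34). Eda2r, a p53 target and a receptor of the TNF family, was at 1.64 (adjusted p 0.0862 in edgeR). None of 13 heat shock genes passed.

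Cebpd and Bcl3 were also called. Cebpd, a transcription factor of the acute phase response, stood at 8.4, 5.8 and 3.0 CPM in WT, 17.0, 19.8 and 13.2 for PS19, 14.6, 14.5, 8.8 and 11.2 for CLEAR, and 17.1, 29.4, 22.7 and 17.8 in CLEAR_PS19. Both tau groups lay above their own controls without overlap (log2 1.16, SE 0.21, adjusted p 0.0269 in edgeR). Bcl3, an atypical inhibitor of NF-kappaB, reached 16.2 and 31.6 CPM in PS19 replicates 1 and 2 and 12.7 CPM in CLEAR_PS19 replicate 3. It stood at 1.8 to 4.8 CPM in the other tau libraries and at 0 to 1.4 CPM without tau (log2 3.66, SE 0.57, adjusted p 0.0109 in edgeR). Against values so near 0 the size of this fold change is uncertain. Masp1, a protease of the lectin complement pathway, passed at 1.54 (SE 0.30, adjusted p 0.0386 in edgeR).

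**Figure D3:**
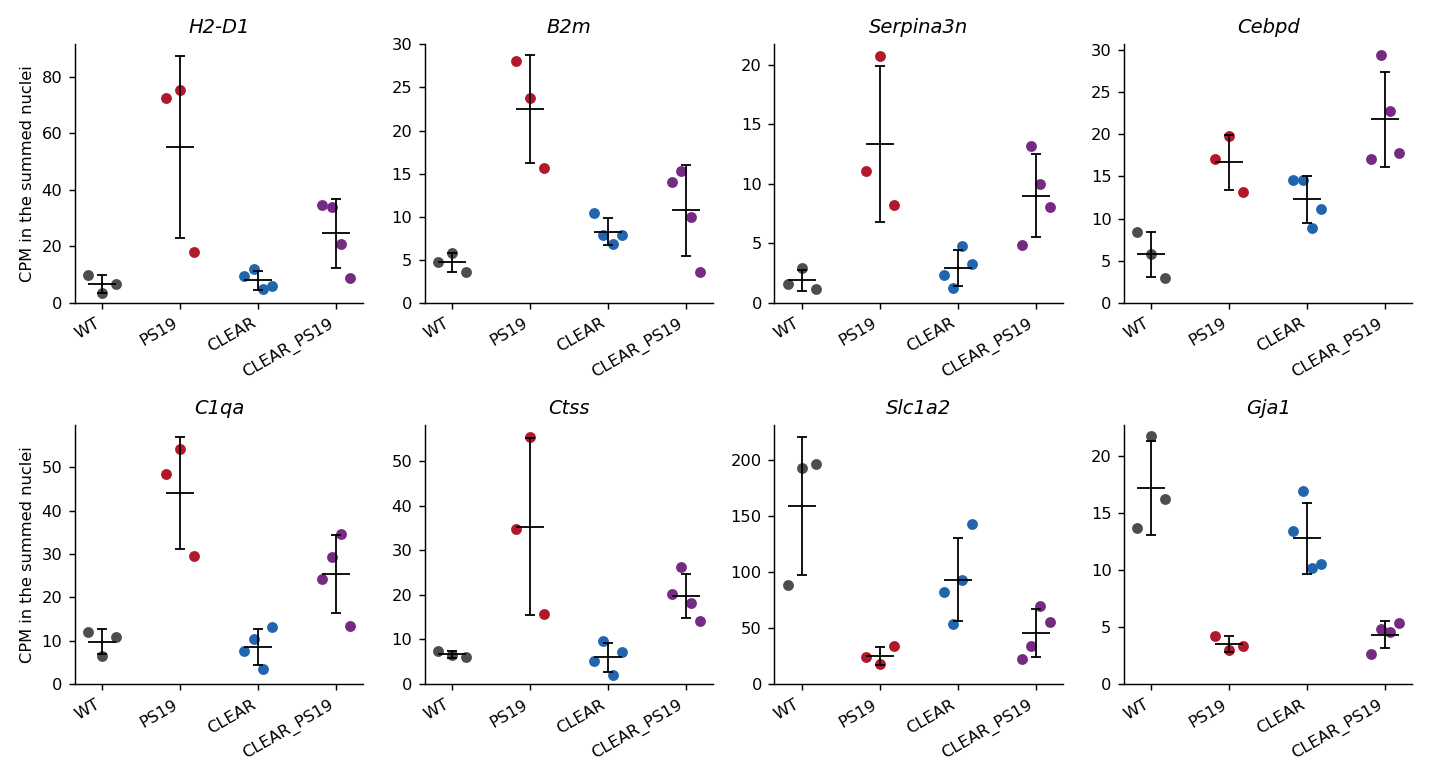
CPM of 8 genes that passed the averaged tau comparison, in mature oligodendrocytes without the 3 reactive genes summed per library. Points are libraries and bars the group mean ± SD (n = 3, 3, 4 and 4). H2-D1, B2m, Serpina3n, Cebpd, C1qa and Ctss are higher and Slc1a2 and Gja1 lower with tau when averaged over both backgrounds. CLEAR_PS19 replicate 4 lies within the range of CLEAR for H2-D1, at 8.9 CPM, and below every CLEAR library for B2m, at 3.6 CPM. CLEAR_PS19 also overlaps CLEAR for Slc1a2. Slc1a2 and Gja1 did not pass when barcodes scored as doublets were left out.

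Genes of other cell types moved with tau in the same sums. C1qa, a chain of complement C1q made by microglia, stood at 12.1, 6.5 and 10.8 CPM in WT, 48.5, 54.4 and 29.7 for PS19, 7.6, 10.3, 3.4 and 13.2 for CLEAR, and 24.1, 29.4, 34.5 and 13.4 in CLEAR_PS19. All 7 tau libraries lay above all 7 others (log2 1.81, SE 0.26, adjusted p 0.00431 in edgeR). The other chains C1qb and C1qc passed at 1.54 and 1.48, Ctss, a lysosomal protease of microglia, at 2.00 and Lyz2, the lysozyme of macrophages, at 3.71. Within sets of libraries Lyz2 had means of 0 to 1.18 CPM without tau, so the size of its fold change is uncertain. In the set of replicates 1 and 2 its means were 1.18 CPM in CLEAR and 1.54 CPM in CLEAR_PS19. Of 8 measured microglial genes outside the rule, the 3 C1q chains passed, and the list's median was 1.29. The list of 11 summed to 101 to 135 CPM in WT, 160 to 246 in PS19, 99.8 to 160 in CLEAR and 126 to 196 in CLEAR_PS19. Over the other nuclei of the libraries it summed to 187 to 289 CPM in WT and 407 to 641 CPM in PS19. The share of nuclei with a C1qa UMI ran from 0.496% to 13.1%, and that of precursors, which should lack the gene and were deeper, from 0.503% to 15.2%. At 1000 UMIs each, the share was 0.333% to 6.03% (median 1.38%) in the nuclei described and 0% to 5.80% (median 0.613%) in precursors, ranges that overlap.

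Slc1a2, the glutamate transporter of astrocytes, stood at 88.3, 193 and 197 CPM in WT, 23.8, 17.8 and 33.8 for PS19, 82.7, 53.9, 93.0 and 143 for CLEAR, and 22.4, 34.2, 70.0 and 55.2 in CLEAR_PS19. PS19 lay below WT and CLEAR without overlap, and CLEAR_PS19 overlapped CLEAR (log2 -1.86, SE 0.24, adjusted p 0.00196 in edgeR). Gja1, the gap junction protein connexin 43 of astrocytes, stood at 13.7, 21.7 and 16.2 CPM in WT, 4.3, 3.0 and 3.3 for PS19, 13.4, 17.0, 10.2 and 10.5 for CLEAR, and 2.6, 4.8, 4.5 and 5.3 in CLEAR_PS19. The 7 tau libraries lay below the 7 others (log2 -1.92, SE 0.25, adjusted p 0.00196 in edgeR). Barcodes with the highest Scrublet scores were taken as doublets, in a number set beforehand by the barcode count of the library. They were 1.60% to 7.08% of a library's nuclei described here. Leaving them out brought Slc1a2 to -0.42 (adjusted p 0.416 in edgeR) and Gja1 to -1.05 (adjusted p 0.334 in edgeR). Wdr17, also lower at -1.70, came to -0.09 and Sparcl1 from -0.59 to -0.15. H2-D1 (2.27), Serpina3n (2.15), B2m (1.31), Cebpd (1.17), C1qa (1.84), Ctss (1.98) and Bcl3 (3.77) kept their calls without doublets, and Irf9 (1.54, adjusted p 0.0764 in edgeR) and Masp1 (1.54, adjusted p 0.0797 in edgeR) did not. Without doublets 17 genes passed in all, 14 higher and 3 lower.

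The 10 astrocyte markers summed to 500 to 709 CPM in WT, 167 to 254 in PS19, 332 to 573 in CLEAR and 229 to 363 in CLEAR_PS19. Of the 8 measured, Gja1 and Slc1a2 passed and 0 had a positive sign, with a median of -1.29. Aqp4, the defining water channel of astrocytes, stood at 0 to 7.2 CPM. The same list summed to 371 to 803 CPM in WT and 164 to 434 in PS19 in the mature oligodendrocytes with the 3 genes. The part of RNA from other cells in the lower and higher calls was not tested beyond leaving out the called doublets.

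Few genes of myelin, lipids or lysosomes passed. None of 34 measured genes of myelin proteins and lipids passed, with a median of -0.04, and Mbp (0.06, SE 0.09) moved by less than its standard error. Abca8a, a lipid transporter of the ABC family, passed as lower. It stood at 226, 210 and 229 CPM in WT, 138, 116 and 184 for PS19, 192, 222, 255 and 298 for CLEAR, and 146, 141, 147 and 239 in CLEAR_PS19 (log2 -0.59, SE 0.11, adjusted p 0.0264 in edgeR). The female library was the highest of both tau groups. No gene of cholesterol synthesis, of the V-ATPase or of TFEB and autophagy passed, among 31, 19 and 35 measured, and of 49 lysosomal genes only Ctss did.

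Premyelinating and precursor markers had positive medians with tau, and none passed. The 8 premyelinating genes had a median of 0.68 and the 7 precursor genes of 1.00. Tnr, tenascin-R, stood at 54.7, 209 and 202 CPM in WT, 328, 925 and 304 for PS19, 36.7, 209.5, 241 and 19.8 for CLEAR, and 130, 187, 558 and 27.6 in CLEAR_PS19. Its averaged fold change was 1.12 (SE 0.53, adjusted p 0.627 in edgeR), and the highest values came from PS19 replicate 2 and CLEAR_PS19 replicate 3. Csmd1, a large membrane protein, was called higher at 1.13 (SE 0.22, adjusted p 0.0386 in edgeR). After nuclei with 2 or more Enpp6 UMIs were left out it was at 0.61 (adjusted p 0.308 in edgeR). Without those nuclei 16 of the 31 genes passed, and no others.

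A long noncoding RNA marked the transgene. Gm43049 (chr3:140692038-140760704, minus strand) stood at 28.1, 17.8 and 20.6 CPM in PS19 and at 20.6, 16.7, 13.6 and 20.5 CPM in CLEAR_PS19. It was at 0 in the 3 WT libraries and in 3 of 4 CLEAR libraries, with 0.68 CPM in CLEAR replicate 3, and it was the single gene called both between PS19 and WT and between CLEAR_PS19 and CLEAR. Its fitted fold against groups at 0 has no fixed size and is not given. Prnp, whose promoter drives the transgene, stood at 120 to 130 CPM in WT and 137 to 169 CPM in PS19 (averaged log2 0.32, SE 0.13, adjusted p 0.553 in edgeR). Mapt, the mouse gene of tau, did not pass (0.00, SE 0.10).

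The interaction, which asks whether the tau effect differs between mice with and without the CLEAR mutation, gave 0 of 11433 genes (0%) in edgeR. DESeq2 also gave 0, and edgeR without a filter on low counts gave 39. In the main fit 394 genes had an unadjusted edgeR p under 0.05, fewer than that share of the genes tested. In simulated counts 27.5% of 2-fold changes between PS19 and WT were recovered, and the interaction was not simulated. The interaction of Atp6v1h was -0.20 (SE 0.32), that of B2m -1.84 (SE 0.46) and that of Slc1a2 1.61 (SE 0.48). The mean of H2-D1 was 55.2 ± 32.1 CPM (SD, n = 3) in PS19 and 24.6 ± 12.2 (n = 4) in CLEAR_PS19. The PS19 males (72.3 and 75.1 CPM) lay above the 3 CLEAR_PS19 males (20.9 to 34.7 CPM), and the PS19 female (18.1 CPM) above the CLEAR_PS19 female (8.9 CPM). Within a set of libraries the H2-D1 difference in log2(CPM + 1) between CLEAR_PS19 and PS19 was -1.77 and -0.95, and H2-D1 did not pass in that comparison (log2 -1.17, SE 0.31, adjusted p 0.476 in edgeR). The 10 reactive and MHC class I genes had a median interaction of -0.49, with 2 of 10 positive and none called.

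Nuclei with and without the 3 genes. Within each library, mature oligodendrocytes with a UMI of C4b, Il33 or Cdkn1a were set against those without, with the library as block. Of 11343 genes 1078 passed (9.5%), 495 higher with the genes (4.36%) and 583 lower (5.14%). Nuclei without the 3 genes held more Enpp6 and Hapln2 RNA and less Ptgds, Opalin and Cryab RNA. The gene lists were chosen with earlier results of these data known. Among their members, 4 of 5 premyelinating genes were higher without the 3 genes. Lower were 6 of 13 heat shock genes and 6 of 11 reactive and MHC class I genes. The 3 genes themselves made the split and are no result. Depth differs between the sides, and in nuclei thinned to 1000 UMIs 489 genes passed.

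Enpp6, a choline phosphodiesterase of newly formed oligodendrocytes, was at 195 ± 28.97 CPM (SD, n = 14; 167 to 257) without the 3 genes. It was lower with them in all 14 libraries, by 0.81 on the log2 scale (SE 0.04, adjusted p 1.99e-15 in edgeR), at 94.4 to 133 CPM. Of 5 measured premyelinating genes 4 were lower with the 3 genes, namely Enpp6, Itpr2 (-1.13), a calcium channel of the endoplasmic reticulum, Fyn (-0.81), a kinase of early myelination, and Bcas1 (-0.14). Tcf7l2, a transcription factor of differentiating oligodendrocytes, was lower by 0.98 (SE 0.13, adjusted p 2.01e-06 in edgeR). Of 7 precursor genes, Tnr (-2.37), Sox6 (-1.50) and Vcan (-1.54) were lower and Pcdh15 (0.23) higher. Prom1 (-3.53) and Ptpro (-2.37), a membrane glycoprotein and a receptor phosphatase, were among the other genes with the smallest p. Tnr was higher without the 3 genes in 12 of 14 libraries. The exceptions were CLEAR replicate 4 (19.8 against 27.0 CPM) and CLEAR_PS19 replicate 4 (27.6 against 74.2 CPM). Few nuclei of either side held a UMI of Tnr. They were 2.07% to 7.16% of a library's nuclei without the 3 genes (median 3.46%). With the 3 genes they were 2.155% to 3.87% (median 2.95%). In thinned nuclei the medians were 1.74% and 1.34%. The difference in summed Tnr RNA therefore does not describe most nuclei without the 3 genes.

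Genes of the mature, Ptgds-rich subtype went the other way. Ptgds was higher with the 3 genes in 14 of 14 libraries, with 1054 to 4196 CPM without and 1172 to 5305 with them (log2 0.33, SE 0.03, adjusted p 3.42e-11 in edgeR). Of the 7 genes of that subtype 4 were higher, namely Ptgds, Car2 (0.15), Grm3 (0.12) and Jph4 (0.36), and Selenop was lower (-0.38). Opalin, a glycoprotein of mature oligodendrocytes, was higher in 14 libraries by 0.31 (SE 0.03, adjusted p 2.14e-09 in edgeR). Of 6 genes of the Klk6 subtype, Hapln2 (-0.31), a linker of the matrix at nodes of Ranvier, and S100b (-0.45), a calcium-binding protein, were lower with the genes. Hapln2 stood at 211 to 653 CPM without and 179 to 500 CPM with them and was lower with them in all 14 libraries.

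Myelin genes split. Of 33 measured, 10 were higher with the 3 genes, among them Opalin, Mal (0.26), a membrane protein of compact myelin, Qdpr (0.27) and Cnp (0.21), an enzyme of non-compact myelin. A further 6 were lower, namely Anln (-0.24), Sirt2 (-0.23), Nfasc (-0.22), Gsn (-0.19), Mbp (-0.08) and Fa2h (-0.08). Aspa and Pllp, among the 10 higher genes, lost their calls in 7 and 5 of the 14 fits that left out 1 library. In thinned nuclei Sirt2 was at -0.0024 (adjusted p 0.992 in edgeR) and Nfasc at 0.032 (adjusted p 0.651 in edgeR), and Fa2h lost its call in 9 of the 14 fits that left out 1 library. Over 20 alternative settings Mbp lost its call in 2, with fold changes of -0.10 to -0.02, and Gsn in 1, with fold changes of -0.28 to -0.10. Of 13 heat shock genes 6 were higher and none lower. Cryab, a small heat shock protein, stood at 142 to 726 CPM without and 185 to 993 CPM with the 3 genes, higher in 14 of 14 libraries (log2 0.43, SE 0.03, adjusted p 4.20e-12 in edgeR). Hsp90aa1 (0.31), Hsp90ab1 (0.27) and Hspa8 (0.21) were higher too. Hspd1 was also called higher, but lost its call in 8 of the 14 fits that left out 1 library. Of 11 reactive and MHC class I genes 6 were higher, with Serpina3n at 1.20 (SE 0.17), Nupr1 at 0.57, H2-D1 at 0.56 (SE 0.09), Cd9 at 0.39, Cd63 at 0.37 and Stat3 at 0.37. Nupr1 lost its call in 3 of the 12 such fits that tested it. Of 49 lysosomal genes 3 were higher (Lamp1 at 0.19, Lamp2 at 0.13 and Psap at 0.12) and of 19 V-ATPase genes 1 was lower (Atp6v0b at -0.10), counts near the background of all genes. Psap and Atp6v0b each lost the call in 7 of the 14 fits that left out 1 library, with adjusted p up to 0.0887 and 0.0820 in edgeR. Atp6v1h did not pass (0.09, SE 0.07).

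**Figure D4:**
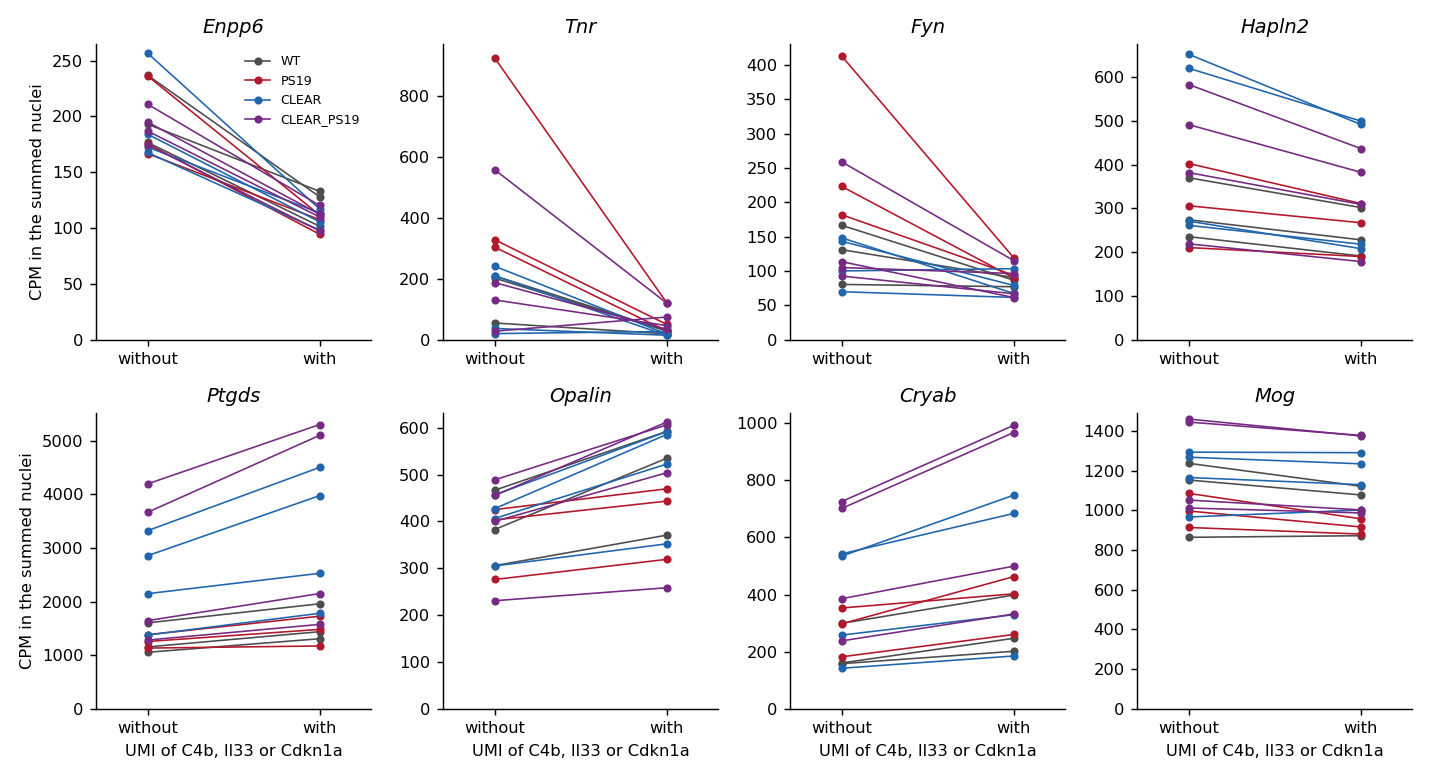
CPM of 8 genes in mature oligodendrocytes without and with a UMI of C4b, Il33 or Cdkn1a, each line a library coloured by group. Enpp6 and Hapln2 are lower with the 3 genes in all 14 libraries and Ptgds, Opalin and Cryab higher in all 14, while Tnr rises in 2 libraries. Mog is one of the genes that chose the nuclei and is shown for reference.

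Variation among the nuclei without the 3 genes was then described through Enpp6, a split chosen after its values were seen. In all, 898 of these nuclei held 2 or more UMIs of Enpp6, 4.37% to 16.5% of a library with a median of 8.06%. Among mature oligodendrocytes with the 3 genes 1374 did, 1.93% to 8.55% with a median of 5.45%. In the 898 nuclei Tnr had a median over libraries of 1295 CPM (0 to 5316) against 20.9 CPM (5.68 to 62.3) in the rest, higher in 12 of 14 libraries. Fyn stood at 512 against 87.8 CPM, Itpr2 at 245 against 24.6 CPM and Bcas1 at 1317 against 661 CPM, each higher in 12 of 14 libraries, and Tcf7l2 at 412 against 70.1 CPM in 13. Ptgds was lower in all 14 libraries, at 403 against 1731 CPM, and Opalin likewise, at 194 against 453 CPM. Hapln2 was higher with Enpp6 in 14 libraries, at 430 against 333 CPM. The nuclei with Enpp6 were deeper, with medians of 1622 to 3508 UMIs against 1247 to 2411, and 4.23% of them were called doublets against 3.57%.

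**Figure D5:**
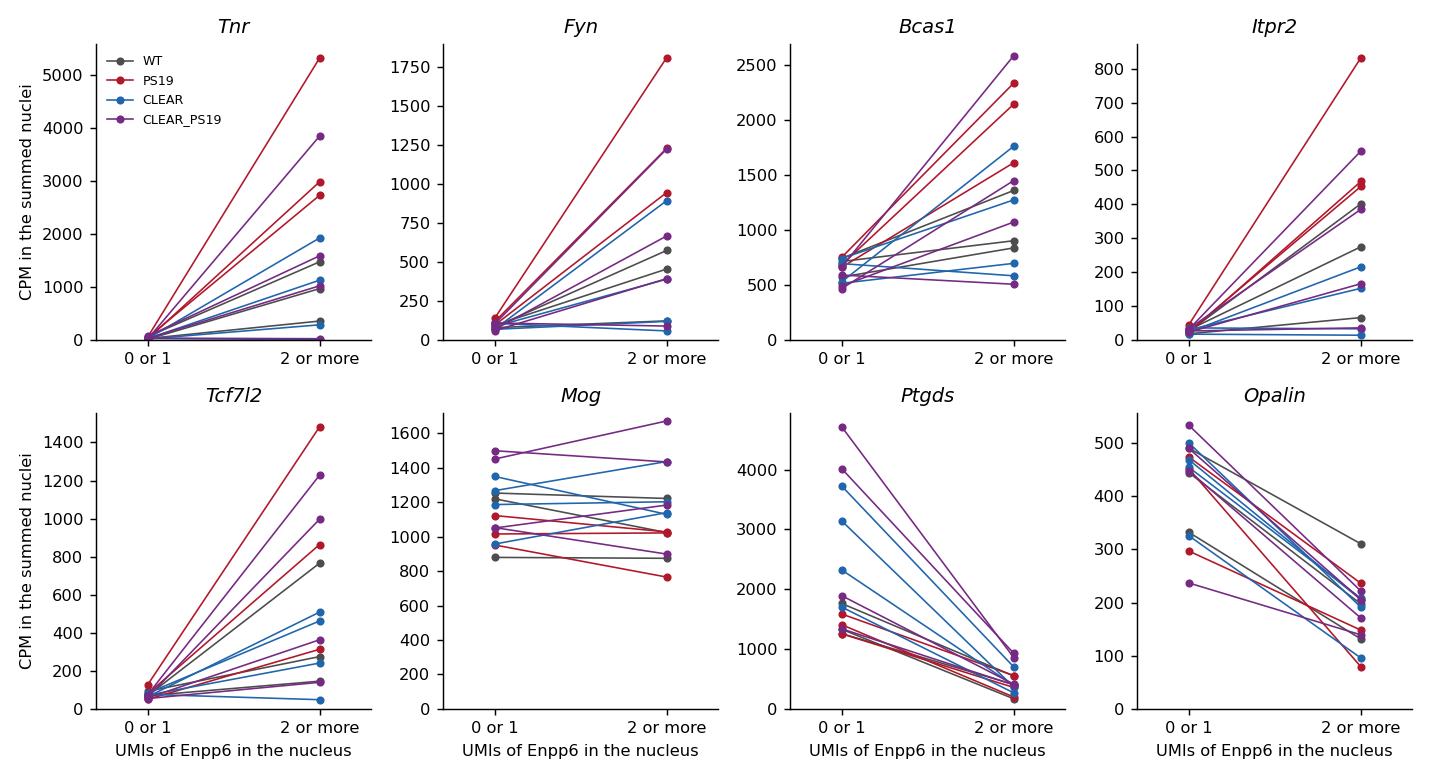
CPM of 8 genes in mature oligodendrocytes without the 3 reactive genes that held 0 or 1 UMI of Enpp6 (left) or 2 or more (right), each line a library coloured by group. Tnr, Fyn, Bcas1 and Itpr2 are higher on the right in 12 of 14 libraries and Tcf7l2 in 13, and Ptgds and Opalin are lower in all 14. Mog is one of the genes that chose the nuclei and is shown for reference.

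When nuclei with 2 or more Enpp6 UMIs were left out on both sides, 739 genes passed between nuclei with and without the 3 genes, 688 of them among the 1078. Tnr came to 0.04 (adjusted p 0.956 in edgeR), Sox6 to 0.25 and Bcas1 to 0.03, all with a turned sign, and Fyn (-0.12), Itpr2 (-0.16) and Tcf7l2 (-0.20) no longer passed. Ptgds (0.25), Opalin (0.24), Hapln2 (-0.31), Cryab (0.40), Pcdh7 (-0.80) and Ptpro (-1.49) still passed.

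Detection of gene pairs in the same nucleus was described at 1000 UMIs each. Ptgds was found in 48.9% to 77.7% of the nuclei of a library and also in 6.12% to 23.9% of precursors at that depth, so 1 UMI of it need not mean expression. Over 9707 nuclei, Enpp6 was found in a median over libraries of 7.33% of nuclei with Ptgds and 22.8% of those without, lower with Ptgds in all 14 libraries. Opalin was found in 36.6% of nuclei with Ptgds and 21.6% of those without, and was higher in 14. Hapln2 was found in 26.0% with Ptgds and 31.7% without, and was lower in all 14. Opalin was found in 19.7% of nuclei with Enpp6 and 33.6% of those without. Hapln2 was found in 36.7% of nuclei with Enpp6 and 26.9% of those without, higher in 10 of 14 libraries, and Tnr in 3.31% and 1.38%, higher in 11. Genes detected per nucleus at this depth had group means of 635 to 643.

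The tau effect in these nuclei was compared with that in the nuclei with the 3 genes and in precursors, in 1 fit each with a test of the difference. The split itself moved with tau, since C4b was found in 4.59% of WT and 47.9% of PS19 mature oligodendrocytes. Nuclei with the 3 genes were thus chosen mostly by Il33 in WT and often by C4b in PS19. A difference in tau effect between the 2 mature sides cannot be told apart from this choice. Against nuclei with the 3 genes 42 of 12866 genes passed (0.326%). The tau effect of Klk6, a serine protease of a mature subtype, was larger there by 1.62 (SE 0.27, adjusted p 0.00196 in edgeR), that of the iron carrier Trf by 0.29, of Neat1, a nuclear noncoding RNA, by 0.33 and of the ion channel Piezo2 by 1.49. That of Csmd1 differed by -0.998, a smaller rise (SE 0.18, adjusted p 0.00484 in edgeR). The fall of Slc1a2 was larger in the nuclei without the 3 genes, with a difference of 1.01 (SE 0.21, adjusted p 0.0213 in edgeR). This fit kept the called doublets. Without them the averaged tau fold change of Slc1a2 in the nuclei without the 3 genes was only -0.42 (adjusted p 0.416 in edgeR). The differences of H2-D1 (0.23, SE 0.21), Serpina3n (1.04, SE 0.49), B2m (0.68, SE 0.27) and C1qa (-0.15, SE 0.19) did not pass, with adjusted p values of 0.874, 0.587, 0.474 and 0.923 in edgeR. Without CLEAR replicate 1 there were 24 calls and without PS19 replicate 3 there were 71.

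Against precursors 39 of 12483 genes passed (0.312%). The tau effect of H2-D1 was larger in the mature nuclei, with a difference (precursors minus mature nuclei) of -1.35 (SE 0.22, adjusted p 0.00315 in edgeR). It stood at 19.7, 21.8 and 19.6 CPM in WT precursors, at 58.9, 56.3 and 17.2 in PS19 precursors and at 29.3, 44.1, 17.4 and 19.1 in CLEAR and at 79.5, 54.1, 37.2 and 17.3 in CLEAR_PS19 precursors. The precursor level without tau was above that of the mature nuclei in every library. The differences of Masp1 (-1.78), Csmd1 (-1.27) and Neu4 (-2.12), a sialidase of premyelinating cells, passed with the same sign, although Neu4 itself was not called in the mature nuclei (2.06, adjusted p 0.160 in edgeR). The difference of Prnp, which was not called in the mature nuclei either, was 0.70 (SE 0.13, adjusted p 0.011 in edgeR). Slc1a2, which precursors hold at 226 to 499 CPM, differed by 1.59 (SE 0.20, adjusted p 0.000135 in edgeR). Without the called doublets its averaged tau fold change in the mature nuclei was -0.42, as given above. C1qa (-0.04, SE 0.47) and Gja1 (0.19, SE 0.70) did not pass. Without WT replicate 2 there were 21 calls, without CLEAR replicate 4 there were 22, without CLEAR_PS19 replicate 2 there were 23 and without PS19 replicate 3 there were 62.

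Bulk hippocampus gave samples that the rule had not used. In bulk tissue, more cells of a type and more RNA per cell cannot be told apart. At 9 months the 5 markers summed to 326, 361, 377, 309 and 387 CPM in WT and to 409, 405, 457 and 519 CPM in PS19. All 4 PS19 libraries lay above all 5 WT libraries, with means of 447 ± 53.1 (SD, n = 4) and 352 ± 33.3 (n = 5), a log2 difference of 0.34 (exact two-sided permutation p = 0.00794, the smallest of 126 relabellings). Mag made up most of the gap, at 231 ± 27.8 CPM (SD, n = 4) in PS19 and 167 ± 18.3 (n = 5) in WT, and was the only 1 of the 5 markers to pass alone (log2 0.47, SE 0.12, adjusted p 0.0127 in edgeR). St18 had the opposite sign (log2 -0.12, SE 0.09, adjusted p 0.390 in edgeR). At 4 months they summed to 334.5, 346, 291, 348, 307 and 333 CPM in WT and to 413, 421, 289.7, 406, 441 and 388 CPM in PS19. There 5 of 6 PS19 libraries lay above every WT library and replicate 3 lay below all of them (log2 0.26, exact two-sided permutation p = 0.0303). Without PS19 replicate 3 the difference was 0.34 (exact permutation p = 0.00216), and leaving out PS19 replicate 1, 2, 4 or 5 or WT replicate 3 or 5 gave 0.22 to 0.25 with exact permutation p values of 0.0541 to 0.0606.

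Across genes, 2060 of 16133 passed in bulk at 9 months (12.8%), 1239 higher (7.68%) and 821 lower (5.09%), and 3 at 4 months (0.0186%). Of 34 myelin genes 15 were higher at 9 months and none lower, among them Mbp, Cnp, Mobp and Cldn11, with a median of 0.28 against -0.01 over all genes. In the nuclei without the 3 genes none of the 34 had passed. Of 8 premyelinating genes Cd82, Bcas1, Itpr2, Enpp6 and Gpr17 were higher in bulk, and of 19 reactive and MHC class I genes 17 were higher. Of the 17 genes higher with tau in the nuclei, 15 were measured in bulk, 12 were higher at 9 months, among them H2-D1, B2m, Serpina3n, Cebpd, Bcl3 and Irf9, and 2 were lower (Csmd1 and Fam155a). Of the 14 lower in the nuclei none was lower in bulk and 4 were higher (Gja1, Prex2, Rftn2 and Gm6145). None of the 15 higher and 14 lower genes measured in bulk passed at 4 months, where 3 of 16133 genes did in all (0.0186%). Bulk tissue holds every cell type, and these values do not belong to oligodendrocytes alone.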

How the data were processed

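Nuclei were profiled by droplet single-nucleus RNA-seq in 14 libraries, and 21 bulk libraries of hippocampus were used beside them. The deposited nuclei matrices give raw UMI counts, with Cell Ranger 5.0.1 named per the file headers; mm10 and Seurat are named in the submitters' processing notes. The deposited bulk tables hold read counts per gene, made with featureCounts 2.0.0 per the file headers of 1 table; the submitters' processing notes also name cutadapt, STAR and DESeq2. Of 32285 genes in the files, 32158 had coordinates in GRCm38.

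Counts of the chosen nuclei were summed per library, since nuclei are not replicates. Genes were filtered by filterByExpr, scaled by TMM and tested with edgeR 4.0.16 (quasi-likelihood, group and sex as terms, Benjamini-Hochberg adjustment over all genes tested, threshold 0.05) in R 4.3.3. Nuclei with and without the 3 genes were compared with the library as block. Single values were tested by exact permutation. Doublets were the barcodes with the highest Scrublet scores (scanpy 1.11.5) and were kept in the main comparisons. Their number was set at 0.8% per 1000 barcodes of the library, which gave 6.03% to 12.86% of a library's barcodes. PS19 bulk replicate 2 at 9 months was not analysed here. The deposited count column of PS19 replicate 3 at 9 months has an irregular name, and its sample label was followed. The scripts were tested on simulated data.

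The members and gene lists were chosen with earlier results of these data known. Genes named were up to 15 higher and 15 lower with the smallest adjusted p in each comparison, called list members, Atp6v1h, Prnp and Mapt, and the 1 or 2 members with the highest level of a list with no call; further genes were named after their values were seen. Alternatives were DESeq2 1.42.0, no filter, no sex term, a replicate block, library sets, doublets left out, thinning, all mature oligodendrocytes, and each library left out. The library sets of these nuclei, the set left out and the Enpp6 split were chosen after seeing the data. Interval and spread statements cover these libraries only.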

Additional observations from a re-analysis of the deposited data

Results flagged for a closer look

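Of 74 values tested within groups of 4 to 6 libraries, 7 had 1 library far from the rest, and chance alone flags about 1 in 20. In the nuclei without the 3 genes, Gm43049 was at 0.679 CPM in CLEAR replicate 3 and at 0 in the other CLEAR libraries. Csmd1 was at 163 CPM in CLEAR_PS19 replicate 1 against 232 to 246 in the others. Cdh8 was at 130.01 CPM and Abca8a at 239 CPM in CLEAR_PS19 replicate 4, against 104 to 105 and 141 to 147 CPM. Gm6145 was at 17.1 CPM in CLEAR replicate 4 against 8.15 to 9.51 CPM. The median UMIs per nucleus were 2263 in CLEAR replicate 3 against 1741 to 1747.5. In bulk, the summed markers of PS19 replicate 3 at 4 months were at 289.7 CPM against 388 to 441 CPM.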

How the results depend on the processing

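Counts of calls depended on the model. Between PS19 and WT (10 calls) DESeq2 gave 32, no filter on low counts 189, no sex term 1, library sets of the other nuclei as block 4, thinned nuclei 3, all mature oligodendrocytes 75, library sets of these nuclei as block 47 and replicates 1 and 2 of CLEAR and CLEAR_PS19 left out 32. Between CLEAR_PS19 and CLEAR (1 call) the same settings gave 12, 129, 1, 20, 2, 3, 12 and 0. Averaged over backgrounds (31 calls) they gave 72, 296, 12, 45, 11, 146, 135 and 57, with 17 without doublets and 16 without nuclei of 2 or more Enpp6 UMIs. Of 30 of the 31 genes followed, 11 still passed with the library sets of the other nuclei as block and 19 with the 4 libraries left out. The sets of the other nuclei are partly split by tau, since 1 of them holds only PS19 replicates 1 and 2 and CLEAR_PS19 replicate 3. For the CLEAR mutation (1 call each), no filter gave 57 against WT, 319 on the tau background and 517 averaged, DESeq2 gave 2 on the tau background and 2 averaged, and library sets of these nuclei gave 2 on the tau background. The interaction (0 calls) gave 39 without a filter. Nuclei with against without the 3 genes (1078 calls) gave 658 in DESeq2, 489 thinned and 645 without those 4 libraries. The tau difference to nuclei with the 3 genes (42) gave 19 in DESeq2, 153 without a filter and 24 thinned, and that to precursors (39) gave 17 and 220.

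Same-numbered libraries were not paired by the labels, and 6 of 19 such pairs correlated above 0.1, against 24 of 54 pairs with different numbers. With the replicate block the counts of calls were 72 between PS19 and WT, 38 between CLEAR_PS19 and CLEAR, 1730 between CLEAR and WT, 1936 between CLEAR_PS19 and PS19, 188 for tau averaged and 3021 for CLEAR averaged. In replicates 1 and 2 this block set CLEAR and CLEAR_PS19 libraries of 1 library set against WT and PS19 libraries of another. In bulk the replicate block gave 0.35 (exact permutation p = 0.125, the smallest that 4 pairs can give) at 9 months and 0.26 (exact permutation p = 0.0625) at 4 months.

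Leaving out 1 library at a time gave 1 to 18 calls between PS19 and WT, 1 to 5 between CLEAR_PS19 and CLEAR, 1 to 1 between CLEAR and WT, 1 to 4 between CLEAR_PS19 and PS19, 7 to 36 for tau averaged, 1 to 1 for CLEAR averaged, 0 to 1 for the interaction, 934 to 1080 between nuclei with and without the 3 genes, 24 to 71 and 21 to 62 for the tau differences. The Atp6v1h differences ranged from 0.14 to 0.29 and from -1.75 to -1.57, and the bulk marker differences from 0.27 to 0.39 and from 0.22 to 0.34. Tnr (0.037), Bcas1 (0.026) and Sox6 (0.25) turned sign without Enpp6 nuclei and Nfasc (0.032) in thinned nuclei. The cause was not tested.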
